A study of Mus musculus with 56 samples.

Results

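TH17 cells without ornithine decarboxylase (Odc-/-) were compared with wild-type (WT) TH17 cells by RNA sequencing, with 4 libraries of each genotype. These 8 libraries, all those labelled TH17 in the Odc count table, are 8 of the 56 samples of the series, and every gene with enough reads was tested, 13839 of the 47937 listed. The Odc-/- cells came from C57BL/6 mice with Odc flox/flox alleles and a Cre recombinase driven by the CD4 promoter, which acts in T cells from the thymic stage at which CD4 first appears, so CD8+ T cells lose the gene as well. WT cells came from Cre-negative littermates, at 6 to 10 weeks of age as a rule. The study's methods describe the groups as matched for sex, which the reads of sex-linked genes given below go against. The cells were purified from spleen and lymph node by negative selection, as CD4+ T cells per the labels and as naive CD4+ T cells per the study's methods. They were stimulated through CD3 (antibody at 5 µg/mL) and CD28 (antibody at 2 µg/mL) with IL-2 at 100 U/mL. For TH17 polarization both genotypes also received IL-1β, IL-6 and TGF-β, the latter pair at 5 ng/mL each, with antibodies to IFN-γ and IL-4 at 10 µg/mL each, and were harvested on day 4. The libraries were also set beside the 23 libraries of Odc-/- and WT TH1, TH2 and Treg cells in the same table (replicate 1 of the Odc-/- TH2 cells was not analysed here) and beside 6 TH17 libraries of WT mice and of mice whose T cells lack Dohh. The labels do not say whether a library is 1 mouse or a pool.

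Ornithine decarboxylase makes putrescine from ornithine, the entry to the polyamines spermidine and spermine. Spermidine is also the substrate for hypusine, a modified lysine of the translation factor eIF5A that is formed in succession by a synthase, Dhps, and a hydroxylase, Dohh. TH17 cells arise when activated CD4+ T cells meet TGF-β and IL-6. They are defined by the cytokine genes Il17a and Il17f, while the transcription factors T-bet (Tbx21), GATA3 and FOXP3 serve TH1, TH2 and regulatory T cells. The comparison asks which genes depend on polyamine synthesis in cells cultured as TH17 cells, and whether the genes of TH17 identity are among them.

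The libraries differed in ways that the genotype labels do not describe. They held 5905374 to 7683006 counts in Odc-/- and 8357339 to 8693038 in WT cells, so a gene with no reads lay below 0.345 to 0.508 CPM (each gene's share of the library's counts on the scale of edgeR's cpm function, with TMM factors). Odc-/- replicate 1 and WT replicate 4 lay between the groups. Why they did so was not tested. Positions were put on a scale where 0 is the mean of other WT libraries and 1 that of other Odc-/- libraries. WT replicate 4 and Odc-/- replicate 1 were left out of these means for every library and subset. Odc-/- replicate 1 had a median position of 0.64 over 818 genes that separated the remaining libraries, and WT replicate 4 one of 0.35. The other TH17 libraries stood at 0.90 to 1.05 and at 0 to 0.03. Replicate 4 of the WT cells was displaced in TH1, TH2 and Treg cells too, at 0.33, 0.24 and 0.40, and replicate 1 of the Odc-/- cells in TH1 cells, at 0.52. The libraries also differed in transcripts of the sex chromosomes. Xist, the RNA that coats the inactive X chromosome of female cells, had at most 0.399 CPM in the 4 Odc-/- libraries and 763, 0.234, 1110 and 1080 CPM in WT replicates 1 to 4. The Y-linked genes Ddx3y, Eif2s3y, Kdm5d and Uty together had 225, 224, 191 and 211 CPM in the Odc-/- libraries and 149, 289, 0 and 0.116 CPM in the WT libraries. All 4 Odc-/- libraries and WT replicate 2 thus carried Y-linked reads without Xist, WT replicates 3 and 4 carried Xist alone, and WT replicate 1 carried both. Genotype and these transcripts cannot be told apart in most of the libraries. Fits without the pair of intermediate libraries and with WT replicate 2 as the lone control are therefore given below for some counts and genes. Both fits were chosen after the data were seen, and not every call or value that they change is given. A lone library is assumed to vary like the other groups.

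**Figure D1:**
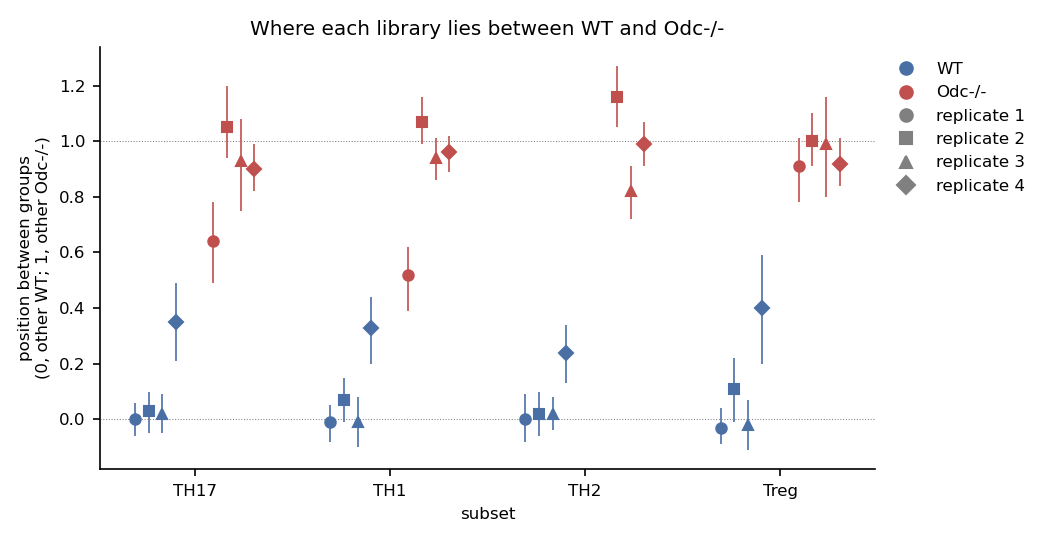
Position of each library of the Odc table between the WT (0) and Odc-/- (1) libraries of its subset, as the median over genes with the quartiles as bars. The scale leaves out WT replicate 4, Odc-/- replicate 1 and the library that is placed. Odc-/- replicate 1 of TH17 cells sits at 0.64 and WT replicate 4 at 0.35, away from the other 6 TH17 libraries.

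Odc1, the gene targeted, was measured over all its exons, so reads of the deleted part are not counted apart. It had 670, 673, 731 and 860 CPM in WT replicates 1 to 4 and 618, 595, 476 and 525 CPM in Odc-/- replicates 1 to 4. Every Odc-/- library was below every WT library, and the log2 fold change of -0.41 (standard error, SE, 0.163, adjusted p = 0.0416, edgeR) did not reach a 2-fold change. Without the intermediate libraries the adjusted p was 0.0936, and the counts of this gene therefore check the genotype labels only weakly. The label TH17 was checked in the WT cells. Of 30 tested genes of a TH17 program, 18 were more than 2-fold higher in WT TH17 cells than in the mean of WT TH1, TH2 and Treg cells at an adjusted p below 0.05, where 5.44% of all genes were called higher and 6.03% lower. Il17a had 338.9 CPM in WT TH17 cells and 0.874, 6.36 and 0.259 CPM in WT TH1, TH2 and Treg cells. The general T cell genes Cd3e (190 to 263 CPM in WT and 209 to 264 CPM in Odc-/-) and Cd4 were read in all 8 libraries.

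Odc-/- and WT TH17 cells differed in a large part of their transcriptome. A gene was called when it differed by more than 2-fold at a Benjamini-Hochberg adjusted p below 0.05 in edgeR's quasi-likelihood test. By this rule 15.6% of the genes tested were called, 1155 of them higher in Odc-/- cells (8.35%) and 998 lower (7.21%), so that 53.6% of the calls were increases. The balance turned in some other fits, with 711 higher and 893 lower in the TH17 libraries alone, 417 and 543 with a mean count of at least 50, and 711 and 771 with WT replicate 2 as the lone control. The median log2 fold change over all genes tested was 0.05. Increases were larger than decreases. The median fitted fold of called genes was 3.52 for genes that rose and 2.84 for genes that fell, and 222 genes rose by more than 8-fold where 63 fell by as much. A fitted fold depends on edgeR's prior count where a group is near 0. In the 1873 called genes with more than 3 counts in some library of each group, the medians were 3.10 and 2.74, and 84 rose and 34 fell by more than 8-fold. Groups that do not overlap, with all 4 Odc-/- libraries on one side of all 4 WT libraries, were seen for 41.1% of the genes tested and for 1697 of the called genes. Most called genes were expressed at modest levels: in 1084 the higher group averaged 1 to 10 CPM, and in 250 it averaged over 100 CPM. Without the intermediate libraries 2799 genes were called, which included 2041 of those called with all 8 libraries. With WT replicate 2 as the lone control fewer genes were called, and 2150 of the original calls kept their direction. Both fits share the Odc-/- libraries and WT replicate 2, so this agreement was largely set beforehand. Of 443 genes tested on the X chromosome 72 were called, or 16.3%, and 2 called genes lie on the Y chromosome. How far sex bears on the calls of other genes was not tested. The p-values rest on a spread shared by all 31 libraries of the Odc table, whose subsets are not independent of each other, as described below. They measure spread between libraries, since the labels do not say that these are separate animals. In the TH17 libraries alone 1604 genes were called.

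**Figure D2:**
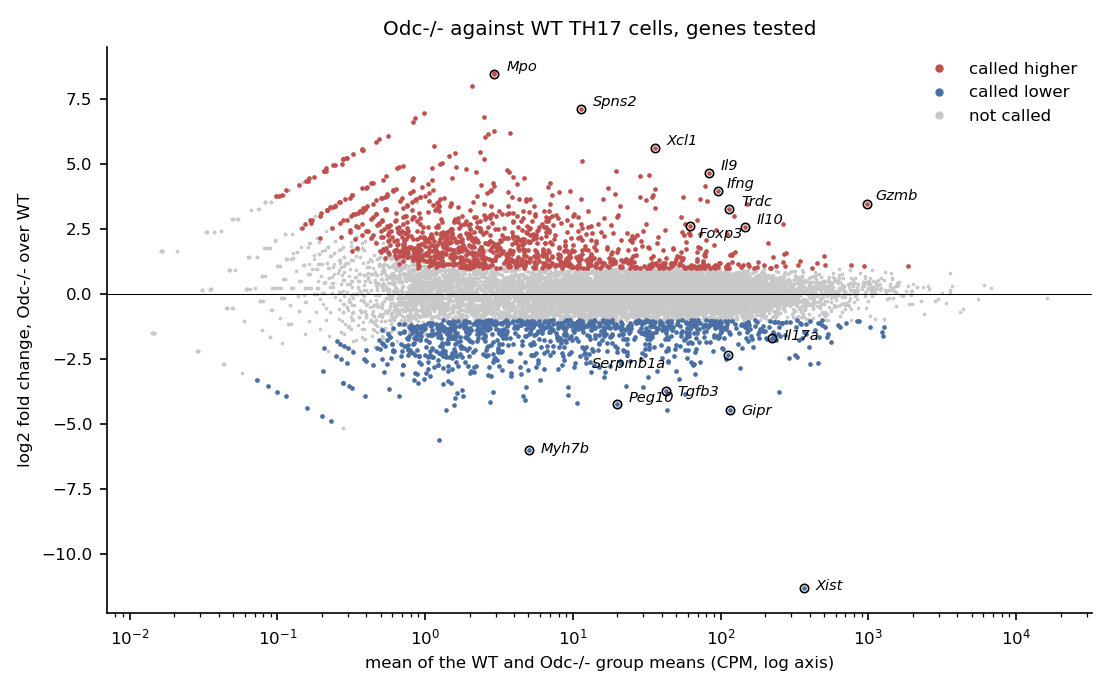
Log2 fold change of each gene tested, Odc-/- over WT TH17 cells, against the mean of the group means in CPM on a log axis, with called genes in color and some of the genes named in the text circled. Il9, Ifng and Gzmb lie far above 0 and Il17a and Tgfb3 below it, and Xist, at -11.30, is the lowest point.

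More genes of the TH17 program fell than rose in Odc-/- TH17 cells, and the cytokine gene Il17a, which names the lineage, was among those that fell. Of 30 genes tested, 11 fell, 3 rose and 16 were not called, with a median log2 fold change of -0.74. The 46.7% called compare with 15.6% of all genes tested. A pair of shorter lists that share members with this program and with those of other lineages went the other way in their counts of calls. Of 16 genes of a pathogenic TH17 signature, which holds Gzmb, Tbx21, Il22 and Ccl3, 7 rose and 3 fell, at a median of 1.26. Its sums were 1470 to 1740 CPM in WT and 2710 to 3850 CPM in Odc-/- cells. Most of that rise came from Gzmb, whose levels are given below. Of 8 genes of a non-pathogenic signature, which holds Il9 and Il10, 4 rose and 1 fell, at a median of 1.29. Each signature had 62.5% of its genes called. The sums of the non-pathogenic list overlapped, at 902 to 1220 CPM in WT and 782 to 1490 CPM in Odc-/- cells. The summed level of the program of 30 genes was 8070 to 9460 CPM in WT and 4590 to 5460 CPM in Odc-/- cells. Il17a had 328, 274, 413 and 341 CPM in WT replicates 1 to 4 and 140, 56.4, 154 and 75.5 CPM in Odc-/- replicates 1 to 4. All Odc-/- libraries were low, with replicates 2 and 4 lowest. Its log2 fold change was -1.67 (SE 0.357, adjusted p = 5.55e-04, edgeR). Against WT replicate 2 alone, the lowest of the controls, it was -1.37 and not called (adjusted p = 0.0786, edgeR).

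The receptor that TH17 cells need to respond to IL-23 fell as well. Il23r had 21.7, 20.6, 19.8 and 17.8 CPM in the WT libraries and 11, 3.81, 6.16 and 3.38 CPM in the Odc-/- libraries, a log2 change of -1.71 (SE 0.316, adjusted p = 1.16e-04, edgeR). The largest decreases on the list were those of the cytokine gene Tgfb3 and the protease inhibitor gene Serpinb1a. Tgfb3 had 93.0, 96.5, 94.2 and 33.0 CPM in WT and 13.3, 2.89, 2.5 and 4.81 CPM in Odc-/- cells, and its log2 fold change of -3.73 became -4.51 without Odc-/- replicate 1. Serpinb1a had 222, 224, 212 and 88.2 CPM in WT and 31.4, 33.1, 41.4 and 43.1 CPM in Odc-/- cells, a log2 change of -2.32. In both genes the Odc-/- libraries lay below every WT library, and WT replicate 4 was the lowest of the controls. Among regulators, Hif1a, the oxygen-sensitive factor that favors TH17 over Treg cells, fell by 1.60 on the log2 scale. Rora, which encodes a nuclear receptor, fell by 1.49, Maf by 1.10 and Irf4 by 1.02. The receptor genes Il1r1, Ltb4r1 and Il6ra had log2 fold changes of -1.35, -1.23 and -1.03. With WT replicate 2 as the lone control fewer of the program's genes were called, at a median of -0.76. Maf, at -1.08, was not called there.

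Il17f, the second cytokine gene of the lineage, changed less. Il17f, the neighbor of Il17a on chromosome 1, had 1400, 1470, 1440 and 1500 CPM in WT and 834, 632, 946 and 586 CPM in Odc-/- cells. Its log2 fold change was -0.95 (SE 0.351, adjusted p = 0.0273, edgeR), and it passed the 2-fold limit without Odc-/- replicate 1 (-1.01) or replicate 3 (-1.09). It also passed with a replicate block in the TH17 libraries alone (-1.01, adjusted p = 4.21e-04, edgeR). Without Odc-/- replicate 2 (-0.88, adjusted p = 0.0703) or replicate 4 (-0.85, adjusted p = 0.078, both edgeR) its adjusted p was above 0.05. The other 3 called members rose. Il22, a cytokine that acts on epithelia, had 2.20, 0.702, 1.70 and 2.67 CPM in WT and 17.8, 10.3, 19.0 and 9.24 CPM in Odc-/- cells, a log2 change of 2.93 (SE 0.637, adjusted p = 6.45e-04, edgeR). All Odc-/- libraries were above all WT libraries. Il24 rose by 1.52 and the chemokine receptor gene Cxcr6 by 1.05, of which Il24 was at 1.43 and not called against WT replicate 2 alone (adjusted p = 0.0964, edgeR).

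**Figure D3:**
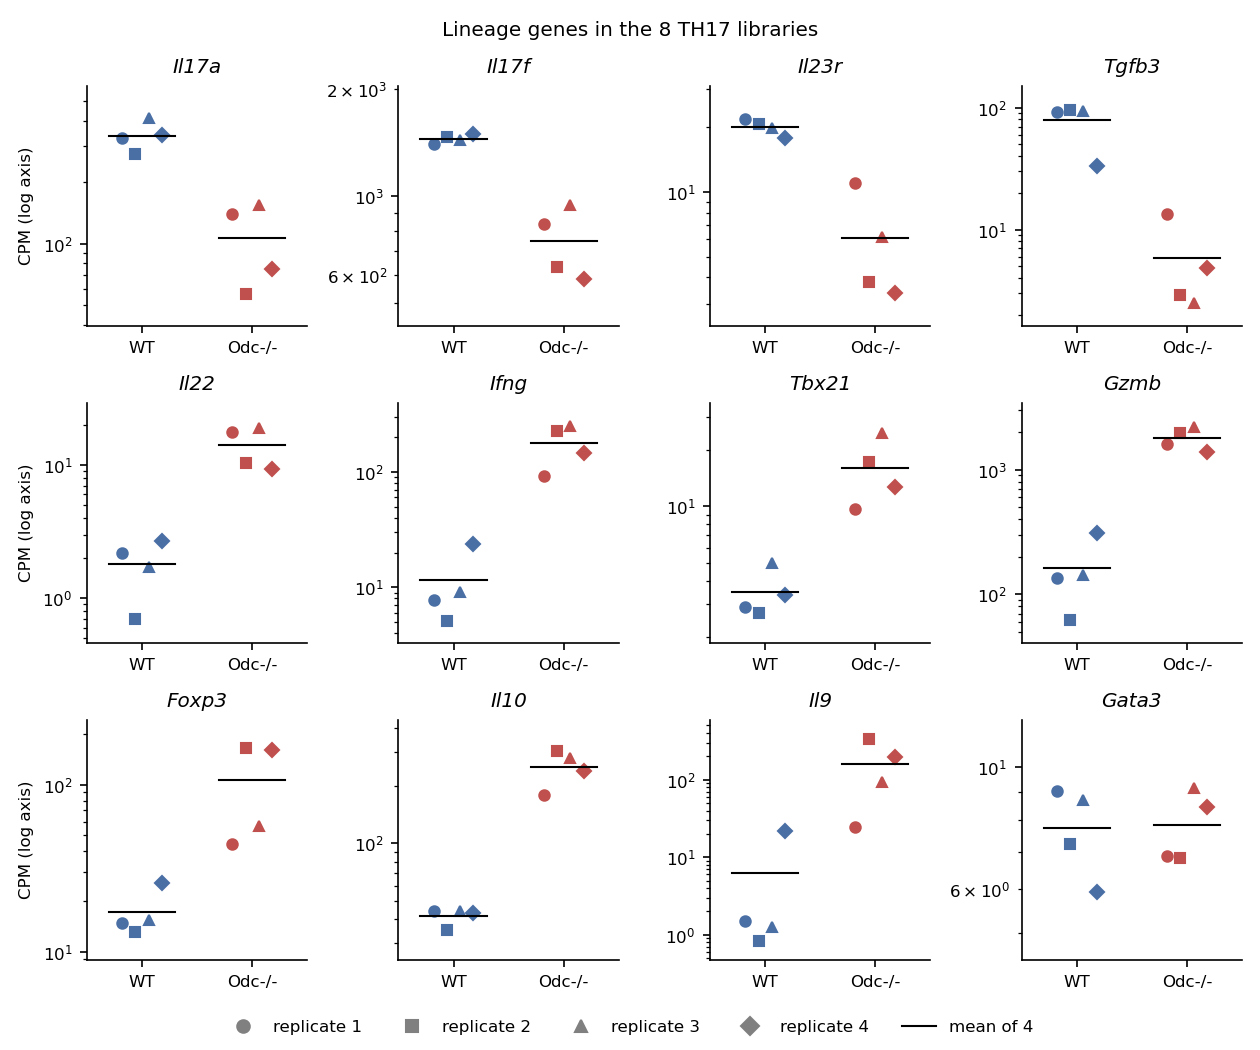
Levels of 12 lineage genes in each of the 8 TH17 libraries in CPM on log axes, with the replicate number as the marker and the mean of the 4 libraries as a line. Il17a, Il17f, Il23r and Tgfb3 are lower in every Odc-/- library, Il22, Ifng, Tbx21, Gzmb, Foxp3, Il10 and Il9 are higher in every one, and the groups overlap for Gata3.

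The promoters of the 3 TH17 genes Il17a, Il17f and Il23r are shown because these genes fell or were lower together. The windows run from 250 bases before to 50 bases after the RefSeq start site in GRCm38.p6 and lie at chr1:20730655-20730954 on the plus strand for Il17a, chr1:20784221-20784520 on the minus strand for Il17f and chr6:67491806-67492105 on the minus strand for Il23r. Each is written 5′ to 3′ on the strand of its gene. Capitals mark matches, on either strand, to a nuclear receptor half-site (AGGTCA, read as TGACCT on the other strand) and to the AP-1 site (TGANTCA), and no match overlaps another.
Il17a: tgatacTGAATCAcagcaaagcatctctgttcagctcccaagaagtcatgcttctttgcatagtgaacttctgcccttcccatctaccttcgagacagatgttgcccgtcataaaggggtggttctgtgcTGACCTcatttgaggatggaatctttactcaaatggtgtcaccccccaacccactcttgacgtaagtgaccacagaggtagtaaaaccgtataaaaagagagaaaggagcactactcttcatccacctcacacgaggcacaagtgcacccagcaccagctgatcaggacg
Il17f: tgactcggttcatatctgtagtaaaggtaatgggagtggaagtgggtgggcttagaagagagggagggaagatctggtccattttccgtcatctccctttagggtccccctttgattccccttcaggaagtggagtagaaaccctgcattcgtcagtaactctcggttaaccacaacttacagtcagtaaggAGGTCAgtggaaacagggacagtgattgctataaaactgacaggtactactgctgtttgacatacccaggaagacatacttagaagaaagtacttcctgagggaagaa
Il23r: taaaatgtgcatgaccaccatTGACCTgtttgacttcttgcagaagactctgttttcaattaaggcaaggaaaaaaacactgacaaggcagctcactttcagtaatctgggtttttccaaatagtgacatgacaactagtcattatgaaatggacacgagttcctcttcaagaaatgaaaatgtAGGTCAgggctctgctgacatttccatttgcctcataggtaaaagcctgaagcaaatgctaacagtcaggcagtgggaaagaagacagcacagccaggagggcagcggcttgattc
The half-site letters begin 120 bases before the start of Il17a and 58 bases before that of Il17f, and in Il23r they occur 229 and 66 bases before it. The letters AGGTCA are common: 16.3% of the 32851 mouse promoters of this table hold them, and so do 12.5% of the promoters of genes tested here. They were found in 15.8% of the promoters of genes called higher and in 14.7% of those of genes called lower. Of 35 promoters that the table holds for the TH17 program, 8 have them. The shares of genes called in either direction thus lay between that of genes tested and that of all promoters, and a match describes the sequence and is not a binding site. Serpinb1a and Tgfb3 had no entry.

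More genes of the TH1 program and of cytotoxic granules rose than fell, although the cultures held antibody to IFN-γ. Of 24 genes of the TH1 program tested, 10 rose, 4 fell and the others were not called, with a median log2 fold change of 0.71. The 58.3% called compare with 15.6% of all genes tested. Summed levels were 1710 to 2010 CPM in WT and 2940 to 4260 CPM in Odc-/- cells. Most of the rise in these sums came from Gzmb, whose levels are given below. Ifng, the defining TH1 cytokine, had 7.77, 5.15, 9.16 and 23.9 CPM in WT replicates 1 to 4 and 92.2, 227, 250 and 147 CPM in Odc-/- replicates 1 to 4. No libraries of the groups overlapped, with the intermediate libraries nearest to each other. The log2 fold change was 3.96 (SE 0.493, adjusted p = 1.67e-06, edgeR), and it was 4.60 without WT replicate 4 and 5.11 against WT replicate 2 alone. Exons of other genes cover 25.95% of the exon length of Ifng in the annotation, and the counting's strand setting is not given in the sources used here. Tbx21, which encodes T-bet, had 2.90, 2.69, 4.97 and 3.37 CPM in WT and 9.70, 17.2, 24.5 and 12.6 CPM in Odc-/- cells, a log2 change of 2.18 (SE 0.396, adjusted p = 1.11e-04, edgeR). Every Odc-/- library was above every WT library, and the call held against WT replicate 2 alone.

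Ifng and Tbx21 were highest in Odc-/- replicate 3, as were most sums of the markers of other cells given below. Gzmb encodes granzyme B, the serine protease that cytotoxic cells deliver into their targets. It had 135, 62.6, 142 and 307 CPM in WT and 1590, 1960, 2200 and 1390 CPM in Odc-/- cells, a log2 change of 3.46 (SE 0.424, adjusted p = 1.37e-06, edgeR). All 4 Odc-/- libraries were far above the WT libraries. Of 19 granule genes tested, 11 rose and none fell, at a median of 1.83, or 57.9% called where 15.6% of all genes were. With WT replicate 2 as the lone control fewer were called, at a median of 2.76. The summed level of the granule genes went from 1180 to 1470 CPM in WT to 3160 to 4610 CPM in Odc-/- cells. Most of that rise came from Gzmb, which the TH1 program and the pathogenic signature also hold. Among the other granule genes Gzmc had 10.4 to 36.9 CPM in WT and 216 to 396 CPM in Odc-/- cells. Gzma had 12.5 to 41.4 and 149 to 323 CPM. The pore-forming protein gene Prf1 rose by 2.28 and the granule membrane gene Nkg7 by 2.87. Gzmd, Gzme and Gzmf, near-identical neighbors whose reads may be shared out between them, also rose, from under 1 CPM for Gzmd in every WT library. Gzmd was not called without Odc-/- replicate 3 (adjusted p = 0.0578) or WT replicate 2 (adjusted p = 0.0516, both edgeR). Nor was it called without both intermediate libraries (3.20, adjusted p = 0.0821, edgeR). Neither Gzmd nor Gzme was called against WT replicate 2 alone. Their log2 fold changes there were 4.85 and 7.06, above the 3.53 and 3.52 with all libraries.

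Of the 4 genes of the TH1 program that fell, 3 are given here. Stat4, which relays IL-12 and IL-23, had 67.0, 62.2, 69.3 and 30.6 CPM in WT and 17.3, 9.47, 15.3 and 13.9 CPM in Odc-/- cells, a log2 change of -2.04 (SE 0.262, adjusted p = 1.96e-06, edgeR). Every Odc-/- library was below every WT library. Il12rb2, a subunit of the IL-12 receptor, fell by 1.35, and Ifngr1, a subunit of the IFN-γ receptor, by 1.67. Tnf, a cytokine of many activated T cells, rose by 1.08 and stayed under a 2-fold change without Odc-/- replicate 2 (0.98) or without WT replicate 1, 2 or 3 (0.96 to 0.98). Exons of other genes cover 26.7% of the exon length of Stat4.

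Promoters of Ifng (chr10:118440796-118441095, plus strand) and Gzmb (chr14:56262285-56262584, minus strand) are shown because both genes rose by a large factor in every Odc-/- library, in the same windows and build. Capitals mark matches to the half-site, to the AP-1 site and to the STAT site (TTCNNNGAA), on either strand, and no match overlaps another.
Ifng: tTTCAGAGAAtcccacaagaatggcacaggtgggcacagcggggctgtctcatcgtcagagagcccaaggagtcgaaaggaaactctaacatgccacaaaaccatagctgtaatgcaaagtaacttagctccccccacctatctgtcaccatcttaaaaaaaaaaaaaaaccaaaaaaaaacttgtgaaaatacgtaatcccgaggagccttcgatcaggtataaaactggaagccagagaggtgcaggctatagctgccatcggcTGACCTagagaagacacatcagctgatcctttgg
Gzmb: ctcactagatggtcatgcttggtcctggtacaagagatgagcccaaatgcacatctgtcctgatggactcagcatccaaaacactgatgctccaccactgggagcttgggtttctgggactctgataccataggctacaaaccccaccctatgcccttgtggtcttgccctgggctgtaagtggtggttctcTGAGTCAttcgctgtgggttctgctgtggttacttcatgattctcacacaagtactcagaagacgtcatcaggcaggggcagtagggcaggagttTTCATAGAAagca
The STAT letters begin 249 bases before the start of Ifng, and the AP-1 letters 58 bases before that of Gzmb. STAT letters occur in 8.30% of all promoters of the table, in 6.81% of those of genes tested, in 6.24% of those of genes called higher and in 7.62% of those of genes called lower. AP-1 letters occur in 7.81% of all promoters, 5.22% of those tested, 8.46% of those called higher and 6.33% of those called lower. No match to the T-box letters AGGTGTGA was found in either window, and they occur in 1.28% of all promoters, 0.89% of those of genes tested, 0.74% of those called higher and 0.966% of those called lower. Promoters of called genes held fewer G and C bases than those of genes tested, with a median of 57.0% for genes called higher and 59.0% for genes called lower against 60.7%, and fewer CpG dinucleotides, 12 and 13 against 20.

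Some cytokine genes of other lineages rose, Il9 and Il10 among them. The TH2 program held a larger share of calls than all genes tested, though most of its genes were not called. Gata3, the TH2 regulator, had 9.05, 7.26, 8.71 and 5.93 CPM in WT and 6.91, 6.84, 9.15 and 8.46 CPM in Odc-/- cells, a log2 change of 0.01 with overlapping groups. Of 19 genes of the TH2 program tested, 6 rose and 1 fell, or 36.8% called where 15.6% of all genes were. Their median log2 fold change was 0.85, and it was 0.76 with WT replicate 2 as the lone control, where fewer rose. The list summed to 2000 to 2620 CPM in WT and 1500 to 1880 CPM in Odc-/- cells, lower in every Odc-/- library. Il9, a cytokine linked to mast cells and helminth defense, had 1.51, 0.819, 1.24 and 21.8 CPM in WT and 24.5, 335, 92.4 and 194 CPM in Odc-/- cells. The groups did not overlap, but the nearest pair, the intermediate libraries, lay at 21.8 and 24.5 CPM. Its log2 fold change of 4.67 (SE 0.843, adjusted p = 1.25e-04, edgeR) became 7.06 without WT replicate 4 and 4.03 without Odc-/- replicate 2. Il10, the anti-inflammatory cytokine, was more even, with 44.1, 35.2, 44.3 and 42.9 CPM in WT and 178, 305, 278 and 239 CPM in Odc-/- cells, a log2 change of 2.59 (SE 0.28, adjusted p = 2.24e-07, edgeR). Every Odc-/- library exceeded every WT library, and the call held against WT replicate 2 alone. The IL-33 receptor gene Il1rl1 rose by 2.54. Il13 rose by 1.09 with overlapping groups, and it was not called without any 1 of Odc-/- replicates 3 and 4 and WT replicates 1, 2 and 3 (log2 fold changes of 0.78 to 1.05). Il4 had 0.468 to 3.37 CPM in WT and 1.20 to 4.81 CPM in Odc-/- cells and was not called (log2 fold change 0.85, adjusted p = 0.155, edgeR), though it was without WT replicate 4 (1.54).

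Foxp3, the factor that defines regulatory T cells, rose in cells cultured for TH17. It had 14.8, 13.1, 15.4 and 25.9 CPM in WT and 44.1, 165, 56.7 and 160 CPM in Odc-/- cells, a log2 change of 2.62 (SE 0.322, adjusted p = 1.31e-06, edgeR). The groups did not overlap, and the Odc-/- libraries fell into a high pair, replicates 2 and 4, and a lower pair. For scale, Foxp3 stood at 478 CPM in WT Treg cells. The Treg program did not rise as a whole. Of 22 genes tested, 6 rose and 5 fell, with a median of 0.32. With WT replicate 2 as the lone control fewer were called, at a median of 0.28. The list summed to 6550 to 6760 CPM in WT and 4980 to 6170 CPM in Odc-/- cells, lower in every Odc-/- library. Itgae, which encodes the integrin CD103, rose by 1.79, Nrp1 by 1.73 and Gpr83 by 1.78. Lrrc32, which encodes the TGF-β docking receptor GARP, had 126, 121, 138 and 81.3 CPM in WT and 30.2, 45.1, 19.8 and 54.0 CPM in Odc-/- cells, a log2 change of -1.64. The TNF receptor genes Tnfrsf4, Tnfrsf18 and Tnfrsf9 had log2 fold changes of -1.12, -1.11 and -1.03, and Ctla4 one of -1.20. Ctla4 (-1.18) and Tnfrsf9 (-1.05) were not called against WT replicate 2 alone, at adjusted p of 0.134 and 0.144 in edgeR's test. Exons of other genes cover 31.5% of the exon length of Foxp3.

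**Figure D4:**
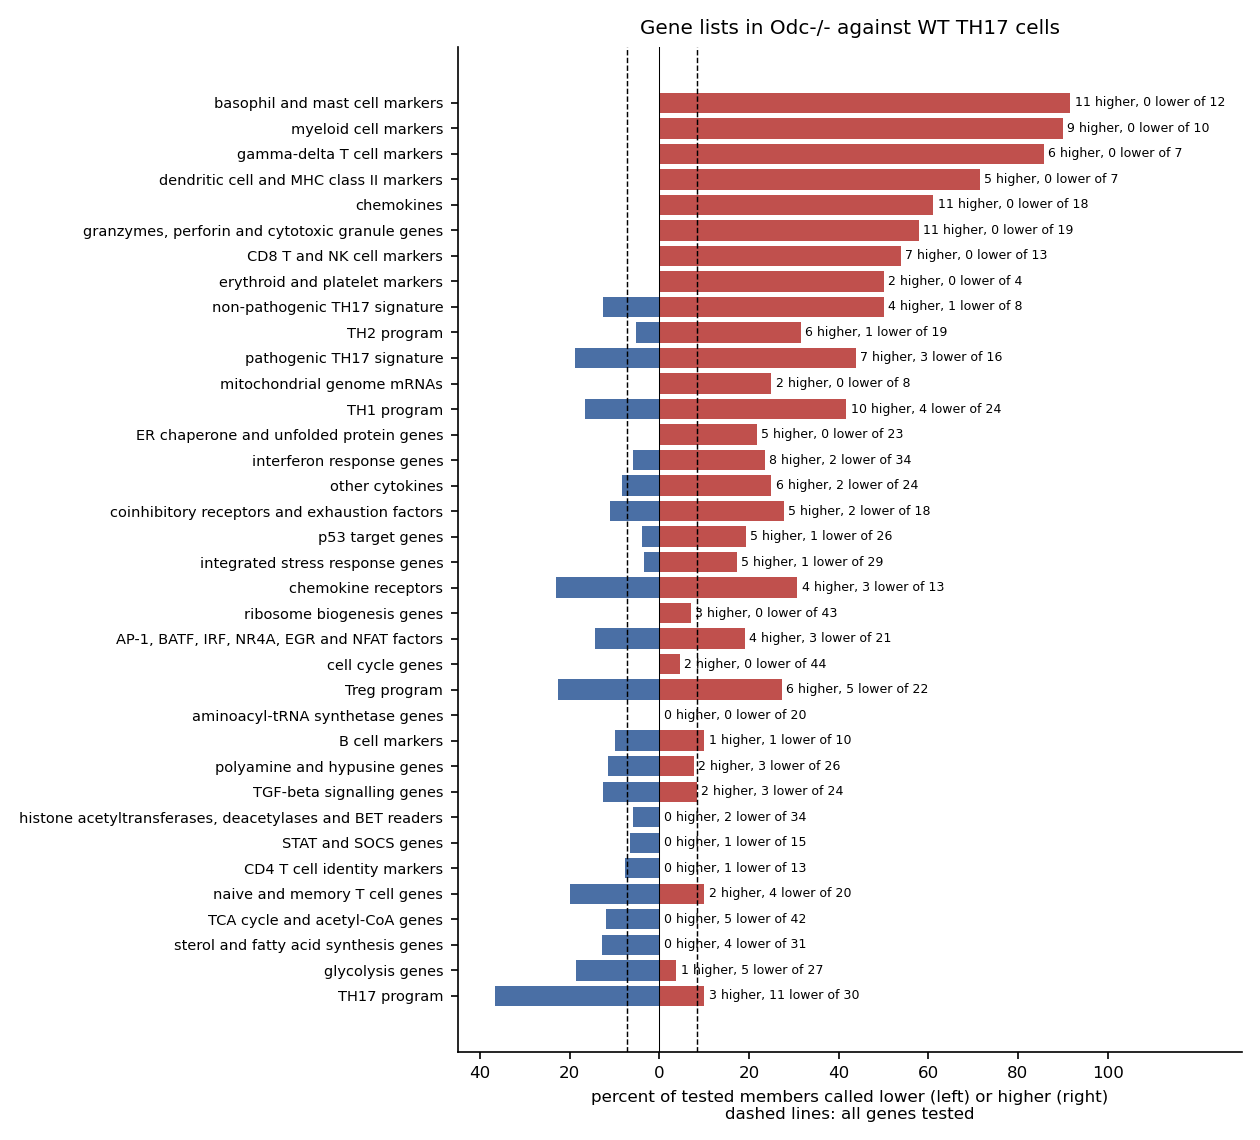
Percent of tested members of 36 gene lists called lower (left) and higher (right) in Odc-/- TH17 cells, with the count of members beside each bar and the shares of all genes tested, 7.21% and 8.35%, as dashed lines. The TH17 program has the longest bar to the left, and markers of basophils, myeloid cells and γδ T cells the longest to the right.

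Other regulators of T cell state and many chemokine genes also changed. Satb1, a chromatin organizer of T cells, fell by 1.47, Bcl6, the factor of follicular helper cells, by 1.50 and Cxcr4 by 1.71. Of 18 chemokine genes tested, 11 rose and none fell, at a median of 1.91, or 61.1% called where 15.6% of all genes were. With WT replicate 2 as the lone control fewer were called, at a median of 3.58. Xcl1, the attractant of cross-presenting dendritic cells, had 0.464, 0.351, 0.452 and 4.41 CPM in WT and 15.5, 82.4, 134 and 51.4 CPM in Odc-/- cells, a log2 change of 5.62 that became 7.33 without WT replicate 4. Ccl3 had 6.32 to 20.3 CPM in WT and 69.9 to 206 CPM in Odc-/- cells, and Ccl4 8.08 to 23.5 and 40.8 to 148 CPM. Of 18 genes of inhibitory receptors and exhaustion factors 5 rose and 2 fell, at a median of 0.12 and with 38.9% called. They summed to 1480 to 2120 CPM in WT and 975 to 1450 CPM in Odc-/- cells. Among them Cd160 rose by 4.10 and Havcr2, which encodes TIM-3, by 3.00, and Vsir fell by 1.25. Of 34 interferon response genes 8 rose and 2 fell, or 29.4% called where 15.6% of all genes were. Gbp2, an interferon-induced GTPase of a family of close relatives, had 752 to 933 CPM in WT and 153 to 313 CPM in Odc-/- cells, while Cxcl9, an attractant of CXCR3+ cells, rose from at most 0.226 CPM in WT to 0.399, 4.08, 10.8 and 1.82 CPM in Odc-/- cells.

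Markers of other blood cells moved with the genotype. The counts of markers called here and in the next paragraph compare with 8.35% of all genes tested called higher and 7.21% called lower. In bulk RNA, fewer cells of a type and less RNA per cell cannot be told apart. Markers of γδ T cells rose in 6 of 7 tested genes, at a median of 3.21. Against WT replicate 2 alone fewer were called, at a median of 3.99. Trdc, the constant segment of the δ chain of the T cell receptor, had 19.0, 13.1, 24.3 and 28.9 CPM in WT and 147, 239, 254 and 193 CPM in Odc-/- cells, a log2 change of 3.28 (SE 0.259, adjusted p = 2.7e-09, edgeR). Tcrg-C4, a constant segment of the γ chain, had 4.57 to 13.1 CPM in WT and 53.6 to 143 CPM in Odc-/- cells. For both genes every Odc-/- library was above every WT library, and both calls held against WT replicate 2 alone. The list summed to 20.6 to 50.9 CPM in WT and 223 to 409 CPM in Odc-/- cells.

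Markers of basophils and mast cells rose in 11 of 12 tested genes, summing to 80.0 to 115 CPM in WT and 162, 375, 532 and 354 CPM in Odc-/- replicates 1 to 4. Without Odc-/- replicate 3 the count was 7. The median log2 fold change was 3.06 with all libraries and 4.22 with WT replicate 2 as the lone control, where fewer were called. Fcer1a, the α chain of the IgE receptor, had 0.234 to 1.24 CPM in WT and 3.06, 7.63, 30.1 and 10.9 CPM in Odc-/- cells. Of 10 myeloid genes tested 9 rose, and their list summed to 23.5 to 57.4 CPM in WT and 56.2, 142, 656 and 139 CPM in Odc-/- cells, so that Odc-/- replicate 1 overlapped the WT libraries and replicate 3 stood far above the rest. Without replicate 3, 5 of them rose. Against WT replicate 2 alone fewer were called, at a median of 3.63, where it was 2.26 with all libraries. S100a8, an abundant neutrophil gene, had 125 CPM in that library and 4.39 to 14.7 CPM in the other 3. Ly6g, a neutrophil gene outside this list, fell in Odc-/- cells and is given below. Genes of dendritic cells and MHC class II rose in 5 of 7 (188 to 251 CPM in WT and 273 to 573 CPM in Odc-/-), although Clec9a and Siglech were at 0 in all 8 libraries. Genes of CD8+ T and NK cells rose in 7 of 13 (226 to 278 and 369 to 505 CPM). Both of these lists had fewer calls against WT replicate 2 alone, at median log2 fold changes of 1.89 and 2.72. With all libraries the medians were 1.53 and 1.36. Erythroid and platelet genes rose in 2 of 4, and none of them did without replicate 3. B cell markers rose in 1 of 10 and fell in 1 of 10. The B cell list summed to 10.1 to 18.6 CPM in WT and 15.6 to 29.8 CPM in Odc-/- cells, so its groups overlapped as those of the myeloid list did, while the sums for γδ T cells, basophils and mast cells, dendritic cells, CD8+ T and NK cells, and erythroid cells and platelets were higher in each Odc-/- library than in each WT library. These sums and that of the myeloid list were highest in Odc-/- replicate 3, as Ifng, Tbx21, Gzmb and Xcl1 were, whereas Il9 was highest in replicate 2. The part of these cells in the results above was not tested.

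Genes of the polyamine and hypusine pathways, Odc1 included, gave 2 increases and 3 decreases among 26 tested, 19.2% where 15.6% of all genes were called. Smox, spermine oxidase, which turns spermine back into spermidine, had 549, 553, 612 and 427 CPM in WT and 217, 45.8, 89.2 and 66.9 CPM in Odc-/- cells, a log2 change of -2.35 (SE 0.408, adjusted p = 7.24e-05, edgeR) that was -3.00 without Odc-/- replicate 1. The groups did not overlap, and the second catabolic gene, Sat1, which acetylates spermidine and spermine, fell by 1.04. Oaz2, an antizyme that inhibits ornithine decarboxylase, fell by 1.31. Srm, spermidine synthase, had 42.6, 43.4, 50.8 and 106 CPM in WT and 125, 195, 186 and 180 CPM in Odc-/- cells. Its log2 fold change was 1.50 (SE 0.42, adjusted p = 0.00531, edgeR), with groups that did not overlap, and it was not called against WT replicate 2 alone (1.98, adjusted p = 0.0588). Genes of the hypusine pathway were higher by less than 2-fold, with log2 fold changes of 0.64 for Eif5a (adjusted p = 0.00265), 0.47 for Dhps (adjusted p = 0.00327) and 0.62 for Dohh (adjusted p = 0.00753, all edgeR). Exons of other genes cover 47.5% of the exon length of Dohh.

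Genes of central metabolism mostly did not reach a call, and those that did were mostly lower. Of 27 glycolysis genes 5 fell and 1 rose, at a median log2 fold change of -0.57, or 22.2% called where 15.6% of all genes were. Without the intermediate libraries 11 fell, at a median of -0.79. Slc2a3, which encodes the glucose transporter GLUT3, had 861, 783, 850 and 300.0 CPM in WT and 318, 25.2, 47.6 and 43.3 CPM in Odc-/- cells, so that only the intermediate libraries overlapped, and its log2 fold change of -2.68 became -4.18 without Odc-/- replicate 1. Against WT replicate 2 alone it was at -2.85 and not called (adjusted p = 0.061, edgeR). Aldoc, an aldolase, fell by 2.83 (log2 fold change -3.79 without Odc-/- replicate 1), Pfkm by 1.50 and Hk1 by 1.10. Of 42 genes of the TCA cycle and acetyl-CoA supply 5 fell and none rose, and the 11.9% called lie below the 15.6% of all genes tested. Acss2, which makes acetyl-CoA from acetate, had 37.9, 44.8, 35.2 and 29.7 CPM in WT and 12.4, 8.55, 9.65 and 8.20 CPM in Odc-/- cells, a log2 change of -1.93 (SE 0.267, adjusted p = 4.78e-06, edgeR). Pdk1, which restrains pyruvate dehydrogenase, fell by 1.75. Acly, which makes acetyl-CoA from citrate, had a log2 change of -0.59 (adjusted p = 3.13e-04) and was not called. Among 34 histone acetyltransferases, deacetylases and their readers, Kat6b (-1.66) and the scarce Hdac11 fell, and Ep300 and Kat2a were not called at -0.88 and 0.21. Of this list 5.88% were called, below the 15.6% of all genes. Ep300 passed the 2-fold limit without the intermediate libraries (-1.06).

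Among stress and growth genes a minority of each list was called. Of 29 genes of the integrated stress response 5 rose and 1 fell, and of 23 ER chaperone genes 5 rose, 20.7% and 21.7% called where 15.6% of all genes were. Without Odc-/- replicate 3 the stress response had 4 increases and no decrease, and the chaperones 3 increases. Nupr1, a stress-induced chromatin protein, had 1.39, 1.40, 1.24 and 5.81 CPM in WT and 8.77, 32.7, 13.5 and 21.5 CPM in Odc-/- cells, and its log2 fold change of 2.96 was 3.82 without WT replicate 4. Atf3 rose by 1.41 and the chaperone genes Creld2 and Calr by 1.42 and 1.11. Of 26 p53 targets 5 rose and 1 fell (23.1% called), and none fell without Odc-/- replicate 3, with Phlda3 at 1.73, Aen at 1.23 and Bax at 1.04. Among 44 cell cycle genes only Ccnd1 (2.45) and Tyms (1.02) were called higher, or 4.55%, and 7 were without the intermediate libraries. With no fold limit 20 were higher and 1 lower at an adjusted p below 0.05 in edgeR's test, at a median of 0.28. Tyms stood at the 2-fold limit and fell short of it with DESeq2, RLE size factors, the TH17 libraries alone or no filter (0.995 to 0.999) and without Odc-/- replicate 3 or WT replicate 1, 2 or 3 (0.91 to 0.96). No aminoacyl-tRNA synthetase gene of 20 was called, at a median of 0.26. Of 43 ribosome biogenesis genes 3 were called higher with all libraries and 9 without the intermediate ones, at medians of 0.52 and 0.74. All 43 had positive log2 fold changes with all libraries, the lowest at 0.104, and 15 had an adjusted p below 0.05 in edgeR's test. With WT replicate 2 as the lone control the median was 0.67, and fewer were called than with all libraries. The mitochondrial transcripts mt-Nd4 and mt-Cytb rose by 1.11 and 1.08.

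The largest changes fell on genes of unlike kinds. Among genes whose groups did not overlap and whose higher group averaged at least 5 CPM, the 8 largest increases were those of Amtn, Mpo, Spns2, Adcy5, Gal, Prtn3, Xcl1 and Ngp. Spns2, which exports sphingosine-1-phosphate, had at most 0.339 CPM in WT and 1.06, 53.8, 11 and 24.9 CPM in Odc-/- cells. With 674 and 5 counts over the libraries of each genotype, the ratio of its levels was 162, and the exact 95% interval of 69.0 to 500.0 covers counting error only, as do those that follow. Adcy5, an adenylyl cyclase, had 0.797, 10.8, 5.66 and 5.86 CPM in Odc-/- cells and 2 counts in all in WT cells, a ratio of 100.3 (27.3 to 835). The neuropeptide gene Gal had 0.532, 19.6, 2.33 and 7.29 CPM in Odc-/- replicates 1 to 4 and 3 counts in all in WT cells, a ratio of 89.3 (30.2 to 436), with most of its reads in replicate 2. Mpo, Prtn3 and Ngp encode proteins of neutrophil granules and were each highest in Odc-/- replicate 3, with 15.8, 14.8 and 78.0 CPM. The other 3 Odc-/- libraries had 1.20 to 3.55 CPM of Mpo, 1.06 to 2.63 CPM of Prtn3 and 1.73 to 6.25 CPM of Ngp. In WT cells Mpo had no counts, Prtn3 2 in all, and Ngp at most 0.904 CPM, and the log2 fold change of Ngp, 5.14 with all libraries, was 2.64 without Odc-/- replicate 3. Amtn had 20 CPM in Odc-/- replicate 2 and at most 2.99 CPM in the other Odc-/- libraries. It was not called with no low-count filter (log2 fold change 8.49, adjusted p = 0.0805, edgeR). Against WT replicate 2 alone neither Amtn (8.51) nor Ngp (10.4) was called. The 8 largest decreases were those of Myh7b, Gipr, Ly6g, Peg10, Grin1, Lum, Gad1 and Ptpn14. Peg10, an imprinted gene derived from a retrotransposon, had 45.2, 43.0, 45.1 and 18.7 CPM in WT and 5.05, 0.920, 1.16 and 0.781 CPM in Odc-/- cells, a log2 change of -4.24 (SE 0.406, adjusted p = 2.91e-08, edgeR) that was -5.31 without Odc-/- replicate 1. Gad1, which makes the transmitter GABA, had 4.41 to 11.5 CPM in WT and 0.333 to 0.664 CPM in Odc-/- cells. Myh7b, a myosin heavy chain gene, had 3.95 to 13.2 CPM in WT cells and 4 counts in all in Odc-/- cells, a ratio of WT to Odc-/- of 71.8 (27.8 to 265). In Gipr, Grin1, Lum and Ly6g, Odc-/- replicate 1 was the highest of the Odc-/- libraries and WT replicate 4 the lowest of the controls. Ly6g, a surface marker gene of neutrophils, moved against Mpo, Prtn3 and Ngp and had 38.9 CPM in its lowest WT library.

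Whether an effect differed between TH17 cells and the other subsets was tested on the difference itself, between the effect in TH17 cells and the mean of the effects in TH1, TH2 and Treg cells. By the same thresholds 4.02% of genes were called, 336 with a higher value in TH17 cells (2.43%) and 220 with a lower one (1.59%). Il17a was among them (difference -2.49, adjusted p = 0.00811, edgeR): it fell in TH17 cells, while its log2 fold changes were 1.50 in TH1, -2.04 in TH2 and 2.99 in Treg cells, where it averaged at most 6.36 CPM in either genotype. Foxp3 differed by 2.28 (adjusted p = 4.44e-04, edgeR), with log2 fold changes of 2.62 in TH17, 0.69 in TH1, 0.55 in TH2 and -0.23 in Treg cells. Serpinb1a differed by -3.00, Stat4 by -1.82, Bcl6 by -1.94, Gbp2 by -1.81 and Peg10 by -4.90. Cyp1a1, a detoxifying enzyme gene induced through the aryl hydrocarbon receptor, was called as well (adjusted p = 7.4e-06, edgeR), but the size of its fitted difference is no estimate, since Odc-/- TH1 and TH2 cells had no reads of it. It had 1.16, 0.819, 0.904 and 1.16 CPM in WT and 6.78, 13.7, 8.65 and 7.29 CPM in Odc-/- TH17 cells, and WT TH1 and TH2 cells had 1.05 and 0.547 CPM. Its log2 fold change in TH17 cells was 3.15 (SE 0.389). Ifng (1.16, adjusted p = 0.149, edgeR) did not pass. Spns2, Gal and Prtn3 were called too, but they also rose in Treg cells, from means of 0.110, 0.408 and 0.110 CPM in WT to 17.02, 11.8 and 5.81 CPM in Odc-/- cells, and TH17 and Treg cells alone were not tested against each other.

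The same Xist and Y-linked pattern followed the replicate numbers in all 4 subsets, and the subsets are therefore not independent of each other. With WT replicate 2 of every subset as the lone control 33 genes differed between TH17 cells and the other subsets, 29 of the original ones among them. Stat4, Gbp2, Rbpms2 and Ptpn14 were still called. Il17a (difference -4.28) and Foxp3 (2.49) were not, at differences no smaller than with all libraries. Serpinb1a (-3.50), Bcl6 (-1.99) and Peg10 (-4.83) were not called either, at differences about as large as with all libraries. Cyp1a1, Spns2, Gal and Prtn3 also lost their calls.

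**Figure D5:**
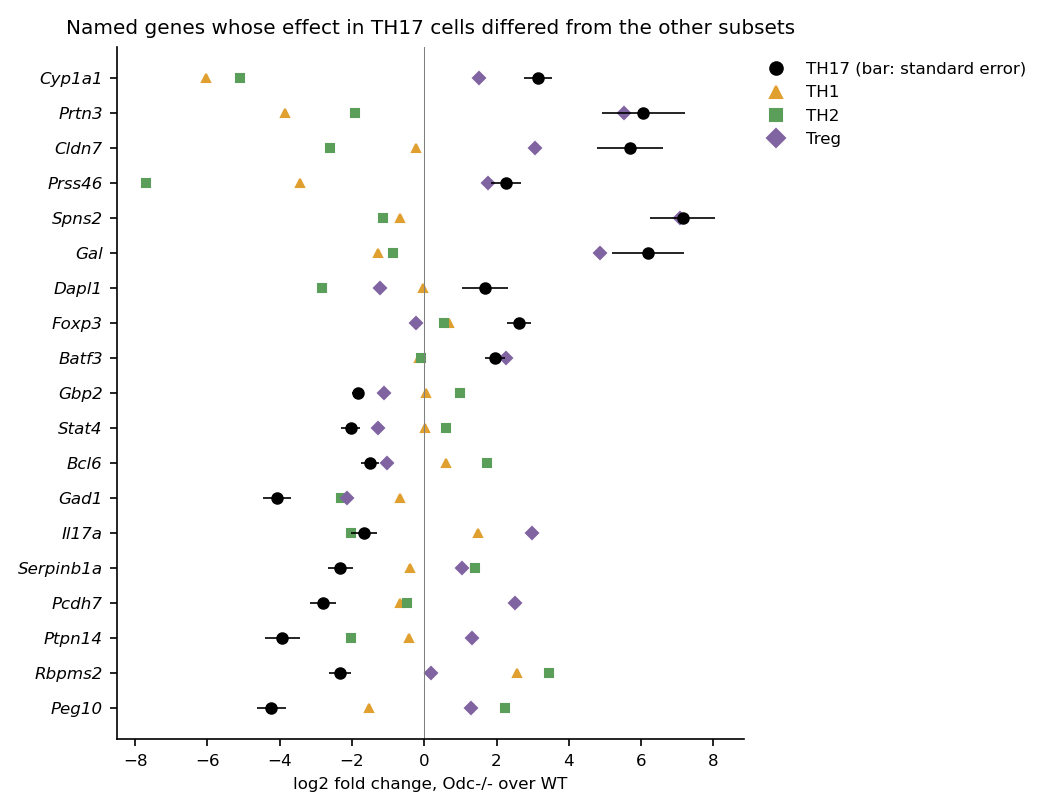
Log2 fold changes of 19 named genes between Odc-/- and WT cells in TH17 cells (black, with standard errors) and in TH1, TH2 and Treg cells (colored symbols). Values of genes with a group near 0 counts, such as Cyp1a1 in TH1 and TH2 cells, depend on the prior count of the fit. Peg10, Rbpms2, Serpinb1a and Il17a lie below 0 in TH17 cells, and Cyp1a1, Prtn3 and Foxp3 above 0.

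Odc deficiency and Dohh deficiency, which act at successive steps toward hypusine, were compared within TH17 cells, each against its own WT controls (3 Dohh-/- and 3 WT libraries). Of 13352 genes tested, 12.5% had effects that differed, 762 with a higher value in Odc deficiency (5.71%) and 907 with a lower one (6.79%), and 1530 genes differed without the intermediate libraries. Of the TH17 program, 15 of 30 genes differed, though the label TH17 was not checked in the WT cells of the Dohh table. Their level of Il17a, given next, was far below that of the WT TH17 cells of the Odc table. Il17a fell in Odc deficiency and had 29.5 CPM in WT and 222 CPM in Dohh-/- cells, a log2 change of 2.94, so that the effects differed by -4.63 (SE 0.545, adjusted p = 1.4e-04, edgeR). Foxp3 went the other way, with log2 fold changes of 2.62 and -2.08 (difference adjusted p = 0.0012). Maf (-1.10 and -2.92, adjusted p of the difference 0.00107, edgeR) was lower in both, more so in Dohh deficiency. Ifng, Gzmb and Tbx21 were higher in both, with log2 fold changes of 6.40, 5.70 and 4.64 in Dohh deficiency, and their effects differed at adjusted p of 0.0451, 0.0468 and 0.00383. Gpr83 rose by 1.78 in Odc deficiency and fell by 5.97 in Dohh deficiency. Smox, with log2 fold changes of -2.35 and -2.08, did not pass (difference -0.30, standard error 0.593, adjusted p = 0.774, edgeR). In the Dohh comparison Xist had 126, 111 and 0 CPM in the Dohh-/- libraries and 241, 0 and 0.115 CPM in the WT libraries, so the sex-linked pattern differs between the tables as well.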

How the data were processed

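The deposited values used here are counts of reads per gene, raw whole numbers that the authors made from stranded mRNA libraries. The submitters' processing notes name STAR, featureCounts, deepTools, DESeq2 and the build mm10. The strand setting and the annotation release of the counting are not given in the sources used here. Genes were named from the table that came with the files, placed with a GENCODE annotation of GRCm38, and matched to RefSeq promoters of GRCm38.p6 by symbol (10137 tested genes matched and 3662 did not). Identifiers without a symbol (713, with 0.0709% of the Odc counts) stayed in the fit.

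Tests were run in R 4.3.3 by edgeR 4.0.16 (TMM, filterByExpr, robust quasi-likelihood fit, Benjamini-Hochberg adjustment over all genes tested) in 1 fit of the 31 Odc libraries with a mean for each of 8 groups, and for Dohh in 1 fit of the 14 TH17 libraries of both tables. Thresholds were a 2-fold change and an adjusted p of 0.05, those of the study's methods. CPM come from edgeR's cpm function with TMM-scaled library sizes. For genes with at most 3 counts in every library of a group, the ratio of summed levels is given with an exact binomial 95% interval. Reads carry no molecular identifiers, so intervals and limits cover counting error only. A library's position was taken on log2(CPM + 0.5) against libraries of its subset, always without that library, Odc-/- replicate 1 and WT replicate 4. It covers genes whose reference groups lay more than 1 log2 unit apart, at a mean log2 level above 2. The fits were tested on simulated data.

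The comparison and the 37 gene lists (742 genes, 738 in the table) were chosen with earlier results of these data known. Genes named in the text are those the study discusses, the 8 largest increases and 8 largest decreases with groups that do not overlap and a mean of at least 5 CPM in the higher group, up to 2 called members in each direction of each list, and the 4 largest differences in each direction between TH17 cells and the other subsets. Other list members were named after their values were seen. A few genes that these rules name are not reported here. Alternatives were RLE size factors, no TMM factors, DESeq2 1.42.0, a mean count of at least 50 or no filter at all, the TH17 libraries alone, replicate blocks, other call rules, each library left out in turn, and, chosen after seeing the data, the libraries and controls described in the text. Figures used Python 3.11.15, pandas 2.3.3 and matplotlib 3.10.9.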

Additional observations from a re-analysis of the deposited data

Results flagged for a closer look

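A gene's level was set apart when the highest or lowest of the 4 libraries of a genotype stood far from the other 3 by Dixon's test, which chance does in about 1 in 20 groups. Most such levels in WT cells belonged to replicate 4, which lies between the groups. In WT replicate 4, polyamine, translation and stress genes stood above the other WT libraries, with 106 CPM of Srm, 1450 CPM of Eif5a, 39.0 CPM of Mtap, 57.5 CPM of Rrp9, 59.5 CPM of Tyms, 38.2 CPM of Aen, 5.81 CPM of Nupr1 and 73.1 CPM of Sdf2l1. The cytokine and chemokine genes Tnf (71.7 CPM), Il9 (21.8 CPM), Xcl1 (4.41 CPM) and Tnfsf4 (6.85 CPM) did so too, as did Kat2a (74.2 CPM) and Cx3cr1 (3.49 CPM). The same library was lowest for Serpinb1a (88.2 CPM), Tgfb3 (33.0 CPM), Ecm1 (443 CPM), Vsir (194 CPM), Fosl2 (248 CPM), Kat6b (118 CPM), Ly6g (38.9 CPM) and Peg10 (18.7 CPM), and for the metabolic genes Slc2a3 (300.0 CPM), Aldoc (162 CPM) and Pdk1 (247 CPM) and Vldlr (43.9 CPM). The one value in another WT library was 35.2 CPM of Il10 in replicate 2.

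Among the Odc-/- libraries, replicate 1 was highest for Slc2a3 (318 CPM), Gipr (34.0 CPM), Peg10 (5.05 CPM), Cxcr4 (96.5 CPM) and Vldlr (45.6 CPM), all genes that were higher in WT cells. Odc-/- replicate 3 had the fewest counts, 5905374, and was highest for genes of neutrophils and platelets, with 78.0 CPM of Ngp, 15.8 CPM of Mpo, 14.8 CPM of Prtn3, 7.65 CPM of Elane, 12 CPM of Pf4, 25.1 CPM of Itga2b and 8.15 CPM of Hk3, and lowest for Il2ra at 2140.0 CPM. Odc-/- replicate 2 held 20 CPM of Amtn.

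The effect of Odc deficiency in TH17 cells differed from the mean effect in the other subsets for 556 genes by edgeR's test of the difference. Among those named, it was lower in TH17 cells for Il17a (difference -2.49), Peg10 (-4.90), Rbpms2 (-4.41), Ptpn14 (-3.54), Pcdh7 (-3.26), Serpinb1a (-3.00), Gad1 (-2.38), Bcl6 (-1.94), Stat4 (-1.82) and Gbp2 (-1.81). It was higher in TH17 cells for Cyp1a1 (6.36), Prtn3 (6.14), Cldn7 (5.62), Spns2 (5.39), Prss46 (5.39), Gal (5.28), Dapl1 (3.05), Foxp3 (2.28) and Batf3 (1.29). Where a group is near 0 counts, as for Cyp1a1, Prtn3, Spns2 and Gal, the size depends on the prior count of the fit. The effect in TH17 cells differed between Odc and Dohh deficiency for 1669 genes.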

How the results depend on the processing

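With all libraries 2153 genes were called between Odc-/- and WT TH17 cells. A test of the 2-fold change itself (glmTreat) gave 562, the adjusted p without a fold limit 6614 and a mean count of at least 50, which leaves fewer genes to test, 960. The other settings with all libraries gave 1604 to 2290. With 1 library left out the count ranged from 1853 to 2538. Of the 106 named genes that were called, 89 kept their call in every such omission, 103 without the intermediate libraries, 102 with DESeq2, 101 with the TH17 libraries alone, 49 with glmTreat and 72 with WT replicate 2 as the lone control, and none of these calls changed sign. Hk3, Itga2b and Pf4 lost their calls without Odc-/- replicate 3. For the difference from the other subsets, 556 genes became 39 with glmTreat, 1708 without a fold limit, 282 at an adjusted p below 0.01 and 312 with a mean count of at least 50. It became 944 without Odc-/- replicate 1 and WT replicate 4 of every subset and 33 with WT replicate 2 as the lone control, and 440 to 562 with 1 TH17 library left out. The effects of Odc and Dohh deficiency differed for 1363 to 1838 genes with 1 library left out. WT TH17 cells differed from the other WT subsets in 1587 genes, and in 637 with a mean count of at least 50. Apart from glmTreat, the fold limit, the stricter p and the count minimum, whose construction sets the number, the causes were not tested.

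Whether the replicate numbers pair the libraries could not be settled. The deviations of same-numbered libraries from their group means correlated at 0.116, -0.0768, 0.185 and 0.1. Those of differently numbered libraries correlated at -0.263 to 0.23, a range that holds these values. With the replicate block 2250 genes were called, and 1630 with the block in the TH17 libraries alone. All 106 calls of named genes held with the replicate block. It gave 689 genes for the difference from the other subsets, and a replicate block within each genotype, chosen after seeing the data, gave 788, with 543 of the 556 among them.

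Depth limits scarce genes: a count of 0 allows up to 0.345 to 0.508 CPM, and 172 called genes averaged at most 1 CPM in their higher group.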
